A study of Homo sapiens with 9 samples.

Results

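The WNT and Hippo pathway genes were followed in WI-38 cells, diploid human fibroblasts from embryonic lung, after DNA damage by doxorubicin. They were chosen by symbol, as WNT ligands, their receptors, secreted antagonists and intracellular transducers, and as the upstream inputs, kinases and nuclear effectors of the Hippo pathway with the CCN proteins. Of the 6499 genes in the deposited table, 45 matched. The control group (3 libraries) received DMSO instead of doxorubicin, and the doxorubicin group (3 libraries) received doxorubicin at 1 μM for 12 h. In each group the drug or carrier was followed by medium with DMSO for 48 h, and all cells were at population doubling 30. The series has 9 samples, and its other 3, which received oridonin after doxorubicin, were not analysed here. WI-38 is 1 cell line. The sample labels do not say whether the libraries of a group came from separate cultures, and the study's methods speak of independent experiments in general without naming the sequenced libraries, so the spread behind the p-values may be in part technical.

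WNT proteins are secreted lipid-modified ligands that bind Frizzled receptors together with LRP5 or LRP6, which stabilizes β-catenin as a partner of TCF and LEF transcription factors. Some WNT proteins, WNT5A among them, act largely through ROR receptors and the actin cytoskeleton without β-catenin. In the Hippo pathway, the kinases STK3 and STK4 activate LATS1 and LATS2, which phosphorylate YAP1 and WWTR1 (TAZ) and keep them from the nucleus, where they are coactivators of the TEAD factors. Both pathways are known for control of growth, adhesion and matrix production in fibroblasts.

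The study's methods select genes at a fold change over 1.2 and a p under 0.05. The table was taken to list the genes that passed in the authors' comparison of these same 6 libraries. On the TPM values some listed genes do not reach that fold change, CTNNBIP1 with a mean ratio of 1.01 among them. The authors' fold change and p columns were not used to check the selection. On this reading each of the 45 genes was selected on the contrast described here. The counts below therefore describe sizes and spread without being a second test. The symbols of the rule fit 112 annotated protein-coding genes, of which 44 are in the table. The other 68, with CTNNB1, AXIN2, TCF7L2, LEF1, TEAD3, TEAD4, CCN1, CCN2, NF2 and SAV1 among them, were not analysed here. The remaining member is the antisense RNA gene LIMD1-AS1.

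Values are TPM (transcript abundance scaled to the same total in every library), a unit inferred from the values since the table does not name it, and the number of reads behind them is unknown. The limma fit used log2(TPM + 1), a scale that understates the change of low genes. A call, higher or lower, needed a change of more than 1.2 times and an adjusted p under 0.05, adjusted across the 5721 genes that averaged 1 TPM or more. Over all genes tested the log2 fold change had a median of -0.28. The calls were therefore also made with the libraries set to equal medians, where the median of all genes tested was -0.02. Those library medians came from the genes tested, which were taken as selected for a difference. Rises and falls need not balance in such a list, so this scale is an alternative and not a neutral reference. Pearson's r of log2(TPM + 1) across genes, which are not independent replicates, was 0.992 to 0.995 within a group and 0.935 to 0.958 across groups. Of the 14 fibroblast markers, 6 are in the table, with a summed level of 10316 to 10640 TPM in the control libraries and 9424 to 11501 TPM in the doxorubicin libraries. The sum hides opposite moves, since FN1 (fibronectin) rose from 4524 to 6220 TPM on average while the other 5 were called lower, COL1A1 from 2825 to 1944 TPM, COL3A1 from 267 to 95.4 TPM and PDGFRA from 29.3 to 15.1 TPM. The 3 listed smooth muscle markers summed to 508 to 551 TPM in control and 229 to 268 TPM after doxorubicin. ACTA2 and CNN1 were called lower, while MYH11, under 1 TPM in every library, lay above control. The 4 listed epithelial markers summed to 140 to 156 TPM in control and 286 to 311 TPM after doxorubicin. Most of that sum was KRT19, at 107 and 246 TPM on average. KRT19 and KRT18 were called higher, KRT8 was not called, and CLDN4 was called lower, from 4.73 to 2.82 TPM. Of the 6 leukocyte markers CD68 and PTPRC are listed, summing to 45.0 to 49.0 TPM in control and 87.4 to 93.7 TPM after doxorubicin with PTPRC under 1 TPM, and of the 6 endothelial markers TEK alone, at 8.45 to 9.83 TPM and 2.29 to 3.27 TPM. The part of these markers in the results was not tested, and in bulk RNA fewer cells of a type and less RNA per cell cannot be told apart.

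Most of the WNT and Hippo genes fell after doxorubicin, on the ligand, receptor, kinase and effector side alike. Of the 41 tested, 32 were called lower, where 48.5% of all genes tested were, and 3 were called higher, where 22.7% of all genes tested were. The 3 that rose were the ligand-processing enzyme gene PORCN, the WNT antagonist gene DKK1 and the matricellular gene CCN3. Among the genes of the Hippo steps 17 of 18 were lower and 1 was higher, and among those of the WNT steps 14 of 22 were lower and 2 were higher. The 41 had a median log2 fold change of -0.51, beside -0.28 for all genes tested, and it was -0.55 for the Hippo steps and -0.45 for the WNT steps. With the libraries at equal medians, 19 of the 41 were lower and 7 higher, beside 30.3% and 45.2% of all genes tested, and their median was -0.25. The lower ones were then 8 WNT genes (WNT5A, WNT16, ROR1, FZD1, FZD6, LRP6, SFRP1 and DAAM2) and 11 Hippo genes (FAT4, WWC2, AMOTL1, STK3, STK4, LATS2, LIMD1, TEAD1, TEAD2, WWTR1 and VGLL3). For the other 13 genes called lower on the TPM values the loss of the call is given with each gene. The 4 further genes called higher on that scale were FZD8, TCF7, CTNNBIP1 and CTNNBL1.

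**Figure D1:**
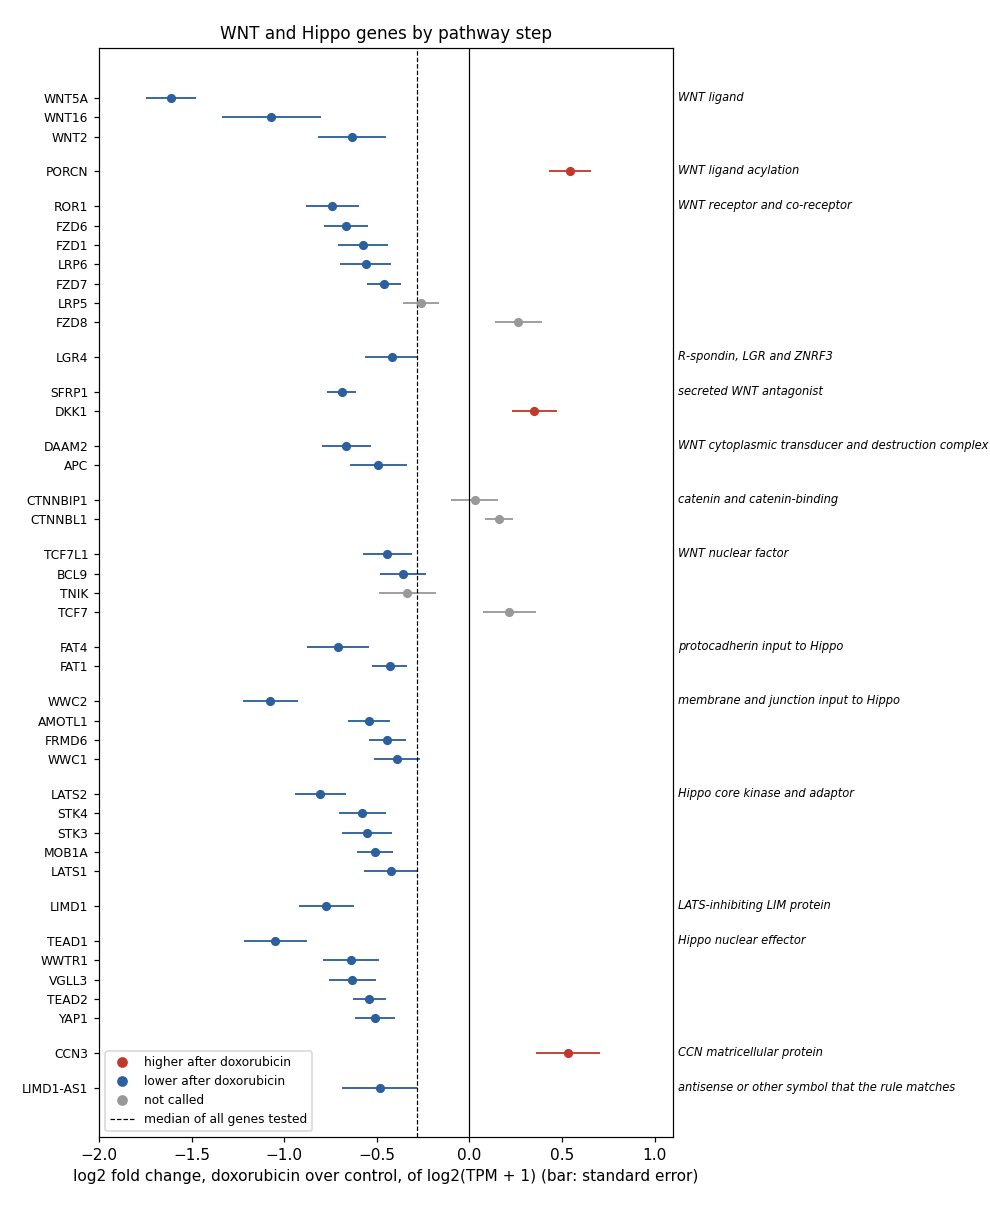
Log2 fold change of log2(TPM + 1), doxorubicin over control, for the 41 WNT and Hippo genes tested, grouped by pathway step (points, fitted value from 3 libraries a group; bars, standard error, SE; dashed line, median of all genes tested at -0.28). WNT5A lies farthest to the left at -1.61, and the 3 genes called higher are PORCN, DKK1 and CCN3.

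In 32 of the 41 genes every doxorubicin library lay below every control library, and in 5 every doxorubicin library lay above. Over all genes tested these shares were 48.4% below and 32.3% above. With 3 libraries a group, an exact permutation test (two-sided) cannot give a p below 0.1 for a single gene, and the genes without overlap are at that limit. Among the 32 genes called lower, doxorubicin replicate 2 was the lowest library of its group in 26 and doxorubicin replicate 3 the highest in 27. The median log2(TPM + 1) of all genes tested showed the same order, with 3.51 in doxorubicin replicate 2 and 3.69 in doxorubicin replicate 3. In the control group, replicate 3 was the lowest library in 24 of the 32 and replicate 2 the highest in 23. Summed over the 41 genes, the level was 1129 to 1307 TPM in the control libraries and 782 to 964 TPM in the doxorubicin libraries, and the groups did not overlap.

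Promoter windows from RefSeq on GRCh38.p14 (250 bases before to 50 after an annotated start) were found for 34 of the 45 genes. For some genes, with WNT5A, WNT16, WWTR1 and AMOTL1 among them, that start lies inside the gene's span. Other starts of a gene were not searched. They were searched on both strands for GGAATG, the core letters bound by TEAD factors, for CTTTGA, within the TCF and LEF consensus, and for TATAAA, the TATA box. GGAATG was in 5 of the 34 windows (14.7%), beside 14.03% of all 35116 windows and 12.1% of the 4395 windows of genes tested. CTTTGA was in 2 (5.88%, beside 12.9% of all windows and 8.33% of those of genes tested) and TATAAA in 4 (11.8%, beside 11.5% and 6.26%). A match describes letters and no binding was measured. The windows below are those of WNT5A, the gene with the largest fall, and of 4 of the 5 genes with GGAATG, which stand at several steps of the Hippo pathway or, as DKK1, among the genes that rose. The fifth was WNT16. Each is printed 5′ to 3′ with any match of the 3 motifs in capitals, at chr3:55487257-55487556, minus strand (WNT5A), chr4:183099007-183099306, plus strand (WWC2), chr13:21061537-21061836, minus strand (LATS2), chr11:102110197-102110496, plus strand (YAP1) and chr10:52314031-52314330, plus strand (DKK1).
WNT5A: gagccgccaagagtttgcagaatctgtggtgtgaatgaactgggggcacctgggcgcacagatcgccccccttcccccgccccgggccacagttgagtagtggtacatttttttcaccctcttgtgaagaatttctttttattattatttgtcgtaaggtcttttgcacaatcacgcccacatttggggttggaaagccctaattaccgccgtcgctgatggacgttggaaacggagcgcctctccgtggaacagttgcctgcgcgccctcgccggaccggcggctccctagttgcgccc
WWC2: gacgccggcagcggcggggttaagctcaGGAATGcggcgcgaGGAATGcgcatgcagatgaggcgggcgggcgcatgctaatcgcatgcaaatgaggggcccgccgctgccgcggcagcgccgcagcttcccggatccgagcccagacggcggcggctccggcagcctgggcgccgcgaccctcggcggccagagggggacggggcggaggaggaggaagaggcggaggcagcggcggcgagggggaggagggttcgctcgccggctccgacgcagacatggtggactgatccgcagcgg
LATS2: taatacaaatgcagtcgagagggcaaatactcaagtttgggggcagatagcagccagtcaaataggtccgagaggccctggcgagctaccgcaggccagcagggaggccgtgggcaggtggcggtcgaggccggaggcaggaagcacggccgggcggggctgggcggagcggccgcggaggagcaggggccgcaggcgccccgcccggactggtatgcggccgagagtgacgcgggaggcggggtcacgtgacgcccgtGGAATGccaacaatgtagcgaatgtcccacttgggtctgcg
YAP1: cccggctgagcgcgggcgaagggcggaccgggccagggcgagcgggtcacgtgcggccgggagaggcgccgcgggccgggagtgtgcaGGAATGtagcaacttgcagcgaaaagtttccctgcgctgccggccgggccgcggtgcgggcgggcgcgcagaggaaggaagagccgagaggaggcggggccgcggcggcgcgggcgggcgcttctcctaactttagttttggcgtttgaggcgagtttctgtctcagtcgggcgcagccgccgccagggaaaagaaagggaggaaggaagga
DKK1: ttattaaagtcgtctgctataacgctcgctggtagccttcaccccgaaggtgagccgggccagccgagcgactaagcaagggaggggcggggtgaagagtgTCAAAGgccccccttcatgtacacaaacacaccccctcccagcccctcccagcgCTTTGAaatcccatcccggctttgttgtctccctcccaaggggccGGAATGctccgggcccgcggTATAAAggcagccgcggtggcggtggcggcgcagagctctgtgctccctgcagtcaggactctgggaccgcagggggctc

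The window of WNT5A, which lies inside the span of the gene, held none of the 3 motifs. WWC2 held GGAATG at 2 places, 222 and 208 bases before the start, and YAP1 held it 162 bases before the start. In LATS2 it began 9 bases after the start. DKK1 was the member with all 3 motifs, with GGAATG 50 bases before the start, CTTTGA on the plus strand 95 bases and in reverse (printed as TCAAAG) 149 bases before it, and TATAAA 30 bases before it. In GC content the member windows had a median of 65.8%, beside 66.0% for the genes tested that have a window.

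The 3 WNT ligand genes in the table were all called lower, beside 48.5% of all genes tested. WNT5A (ENSG00000114251, chromosome 3, 55465715 to 55490539) is a noncanonical ligand abundant in lung mesenchyme. The control libraries had 50.1, 56.3 and 45.0 TPM, and the doxorubicin libraries 15.5, 13.1 and 19.3 TPM. Each doxorubicin value was under 20 TPM, far below the lowest control value. On the log2 scale the change was -1.61 (standard error, SE, 0.13, limma adjusted p = 6.86e-06), and -1.35 at equal medians. WNT16, a ligand linked to senescence and to bone, was at 12.5, 18.8 and 9.14 TPM in control and 7.04, 3.76 and 6.64 TPM after doxorubicin. Its groups did not overlap but its control libraries were widely spread, and the log2 fold change was -1.07 (SE 0.27, limma adjusted p = 0.00603), and -0.81 at equal medians. WNT2, a canonical ligand of lung mesenchyme, was low in every library, with 1.34 to 2.72 TPM in control and 0.72 to 1.21 TPM after doxorubicin. It was called lower at a log2 fold change of -0.64 but neither at equal medians (-0.38, limma adjusted p = 0.119) nor after quantile normalization (-0.35). Summed over the 3 ligands, the level was 65.9 ± 9.9 TPM (SD, n = 3) in control and 22.7 ± 4.62 TPM (SD, n = 3) after doxorubicin, or 34.4% of control.

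PORCN (ENSG00000102312, chromosome X, 48508962 to 48520814) encodes the acyltransferase that attaches the lipid every WNT ligand needs for secretion. In contrast to the ligands it rose, from 8.64, 10.9 and 8.89 TPM in the control libraries to 13.7, 14.6 and 14.3 TPM in the doxorubicin libraries. The lowest doxorubicin value was above the highest control value. Limma gave a log2 fold change of 0.54 (SE 0.11, limma adjusted p = 0.00192) and 0.80 at equal medians, and it was called in the fit without each library in turn.

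Among the receptors, 5 of 7 were called lower and none higher on the TPM values, beside 48.5% and 22.7% of all genes tested. The uncalled ones were LRP5 and FZD8. At equal medians 4 receptors were lower and 1 was higher, beside 30.3% and 45.2%. The receptor tyrosine kinase gene ROR1 (ENSG00000185483, chromosome 1, 63774022 to 64181498), whose product binds WNT5A, fell from 2.41, 2.46 and 2.22 TPM to 1.05, 0.71 and 1.32 TPM. Its doxorubicin libraries did not overlap with control, and the log2 fold change was -0.74 (SE 0.14, limma adjusted p = 0.0012), and -0.48 at equal medians. The Frizzled genes FZD6 and FZD7 were the receptors with the highest levels, at 34.3 ± 1.5 and 36.1 ± 1.2 TPM in control and 21.5 ± 3.73 and 26.1 ± 2.85 TPM after doxorubicin (SD, n = 3 each). Their log2 fold changes were -0.67 and -0.46. FZD7 was not called at equal medians (-0.20) but was called lower after quantile normalization (-0.37). FZD1 fell by 0.58 on the log2 scale and was not called after quantile normalization (-0.21).

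FZD8 moved the other way, with 2.53 to 3.20 TPM in control and 3.42 to 4.01 TPM after doxorubicin. The groups did not overlap, but its log2 fold change of 0.26 was not called on the TPM values (limma adjusted p = 0.0781). It was called higher at equal medians (0.52) and after quantile normalization (0.62). The summed level of the 4 Frizzled genes was 77.9 ± 2.98 TPM in control and 53.9 ± 7.1 TPM after doxorubicin (SD, n = 3 each).

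Of the co-receptor genes, LRP6 was called lower at -0.56, though not after quantile normalization (-0.19), while LRP5 had a log2 fold change of -0.26, just under the minimum fold change and past it without control replicate 2 or doxorubicin replicate 1, and -0.0019 at equal medians. The ratio of LRP6 to LRP5 within a library, in which the scaling cancels, was 0.167 to 0.223 in control and 0.123 to 0.163 after doxorubicin, without overlap. LGR4 (ENSG00000205213, chromosome 11, 27365961 to 27472775), a receptor for R-spondins, which strengthen WNT signals, was at 2.33, 2.47 and 1.94 TPM in control and 1.17, 1.35 and 1.78 TPM after doxorubicin. The groups lay close to each other, with 1.78 TPM as the highest doxorubicin value and 1.94 TPM as the lowest control value. Its log2 fold change was -0.42 (SE 0.14, limma adjusted p = 0.0198), and it was not called at equal medians (-0.16), after quantile normalization (-0.11) or without control replicate 1, control replicate 2 or doxorubicin replicate 1. LGR6 was below the filter on low values, with at most 0.09 TPM in any library.

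The secreted antagonists SFRP1 and DKK1 were among the most abundant members and went in opposite directions. SFRP1 (ENSG00000104332, chromosome 8, 41261958 to 41309497), whose product binds WNT ligands outside the cell, had the highest level of all members, with 346, 376 and 331 TPM in control and 223, 195 and 235 TPM after doxorubicin. The lowest control value lay far above the highest doxorubicin value. Its log2 fold change was -0.69 (SE 0.08, limma adjusted p = 4.26e-05), and -0.43 at equal medians. DKK1 (ENSG00000107984, chromosome 10, 52314296 to 52318042), whose product blocks LRP5 and LRP6, was at 90.8, 107 and 75.7 TPM in control and 113, 106 and 128.5 TPM after doxorubicin. Here the groups overlapped, since doxorubicin replicate 2 lay just below control replicate 2 (exact permutation test, p = 0.2). The log2 fold change was 0.35 (SE 0.12, limma adjusted p = 0.0224) and 0.61 at equal medians, and the call was lost without control replicate 3, without doxorubicin replicate 3, with limma's trend and robust options off and after quantile normalization. The ratio of SFRP1 to DKK1 fell without overlap, from 3.50 to 4.37 in the control libraries to 1.83 to 1.98 in the doxorubicin libraries.

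Of the cytoplasmic transducers, DAAM2 (ENSG00000146122, chromosome 6, 39792298 to 39904877), a formin that links Dishevelled to actin, fell from 4.08, 4.38 and 3.90 TPM to 2.20, 1.85 and 2.69 TPM. The groups did not overlap, and the log2 fold change was -0.66 (SE 0.13, limma adjusted p = 0.00149), and -0.41 at equal medians. An antisense gene shares 24.4% of its exonic bases, and strand use in the counting is not stated. APC, the scaffold of the complex that degrades β-catenin, was at 3.75 to 5.34 TPM in control and 2.37 to 3.29 TPM after doxorubicin. It was called lower at -0.49 but not at equal medians (-0.23), after quantile normalization (-0.11) or without control replicate 2.

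None of the catenin-family genes was called on the TPM values. CTNNBIP1, an inhibitor of the binding of β-catenin to TCF, had 14.9 to 20.3 TPM in control and 15.7 to 18.3 TPM after doxorubicin, with overlap and a log2 fold change of 0.03 whose sign turned in 3 of the 6 fits that leave out a library. CTNNBL1, a splicing-associated protein named for its similarity to β-catenin, was at 32.0 to 33.5 TPM and 34.7 to 38.0 TPM, with a log2 fold change of 0.16 (limma adjusted p = 0.0793). At equal medians both were called higher (0.29 and 0.42), and after quantile normalization neither was (0.23 for both). CTNNA2, the neuronal α-catenin, was below the filter, with at most 0.02 TPM in control and 0.14 to 0.23 TPM after doxorubicin.

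Of the 4 nuclear WNT genes, 2 were called lower and none higher, beside 48.5% and 22.7% of all genes tested. TCF7L1 (ENSG00000152284, chromosome 2, 85133410 to 85310388), which acts mostly as a repressor at TCF sites, was at 9.10, 7.99 and 8.04 TPM in control and 5.28, 5.43 and 7.10 TPM after doxorubicin. Doxorubicin replicate 3 lay nearest to control, and the groups did not overlap. Its log2 fold change was -0.44 (SE 0.13, limma adjusted p = 0.0117), with no call at equal medians (-0.18), after quantile normalization (-0.08) or without control replicate 1 or doxorubicin replicate 1. BCL9, a β-catenin coactivator, was called lower at -0.36 but not at equal medians (-0.10), and its sign turned after quantile normalization (0.01). Its call was also lost without control replicate 1, doxorubicin replicate 1 or doxorubicin replicate 2. TNIK, a kinase that binds TCF7L2, had overlapping groups and a log2 fold change of -0.34 (limma adjusted p = 0.0659), with a call as lower without control replicate 3 or doxorubicin replicate 1. TCF7 had 2.38 to 3.52 TPM in control and 3.55 to 3.85 TPM after doxorubicin, and its log2 fold change of 0.22 was not called, while it was called higher at equal medians (0.47) and after quantile normalization (0.58). The ratio of TCF7L1 to TCF7 was 2.27 to 3.82 in control and 1.41 to 1.86 after doxorubicin, and the groups did not overlap.

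**Figure D2:**
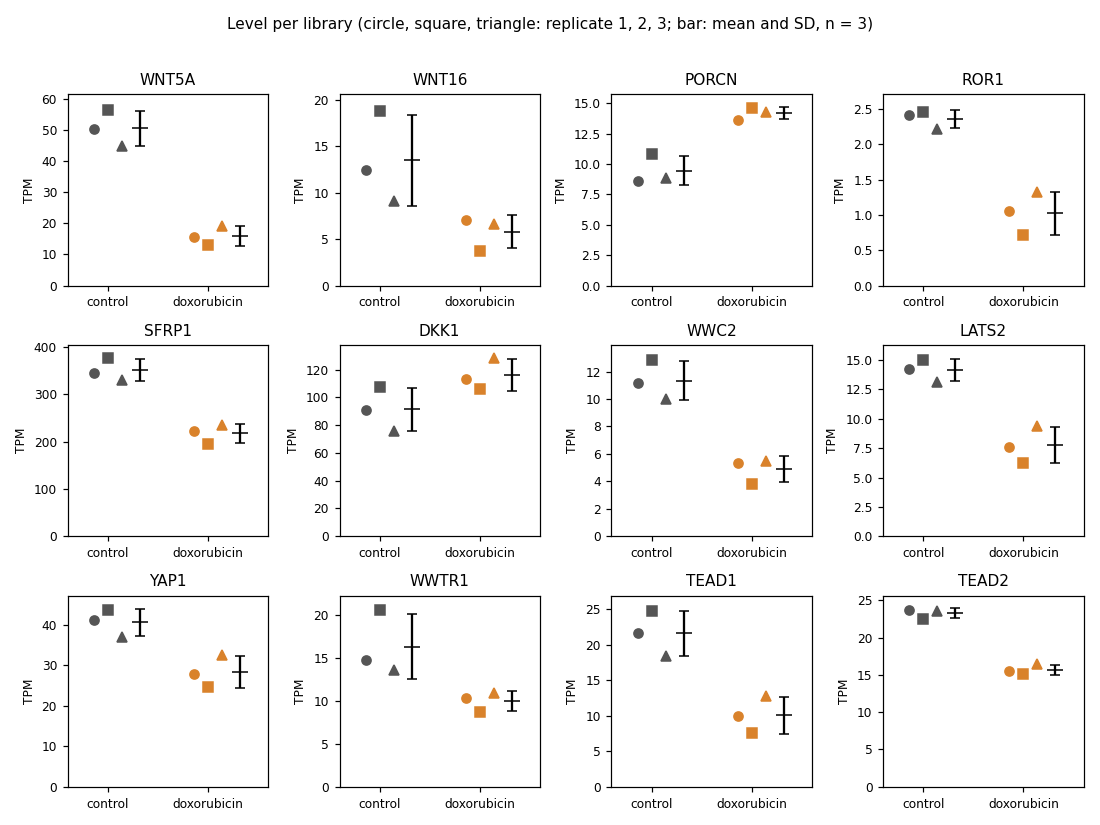
TPM in each control and doxorubicin library for 12 WNT and Hippo genes (circle, square and triangle, replicates 1, 2 and 3; bars, mean and SD, n = 3), on axes that start at 0. PORCN lies higher after doxorubicin, DKK1 overlaps between groups, and the other 10 lie lower without overlap, WNT5A under 20 TPM in each doxorubicin library.

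At the cell surface, the Hippo pathway takes input from the large protocadherins. FAT4 (ENSG00000196159, chromosome 4, 125316399 to 125492932), the receptor of DCHS1, fell from 5.38, 6.40 and 4.81 TPM in the control libraries to 2.91, 2.26 and 3.93 TPM in the doxorubicin libraries. No doxorubicin value reached the lowest control value. On the log2 scale the change was -0.71 (SE 0.17, limma adjusted p = 0.00347), and -0.45 at equal medians, and it missed the call after quantile normalization (-0.33). FAT1 had the second highest level of all members, at 203 ± 9.75 TPM in control and 151 ± 22.8 TPM after doxorubicin (SD, n = 3 each). It was called lower at -0.43 and after quantile normalization (-0.49), but not at equal medians (-0.17). DCHS1, the ligand of FAT4, was below the filter, with 1.13 to 1.25 TPM in control and 0.41 to 0.72 TPM after doxorubicin. With no filter it was called lower (log2 fold change -0.54, limma adjusted p = 0.00241).

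All 4 genes of the membrane and junction inputs were called lower, beside 48.5% of all genes tested. At equal medians 2 of them were, beside 30.3%. WWC2 (ENSG00000151718, chromosome 4, 183099293 to 183320777), a KIBRA-family scaffold that promotes LATS activity, had 11.1, 12.8 and 10.0 TPM in control and 5.35, 3.78 and 5.50 TPM after doxorubicin. The highest doxorubicin value lay far below the lowest control value. Its log2 fold change was -1.08 (SE 0.15, limma adjusted p = 0.000172) and -0.82 at equal medians. Exons of CLDN22 on the opposite strand share 25.9% of its exonic bases. WWC1, which encodes KIBRA itself, was lower by less, at -0.39. It was not called at equal medians (-0.13), after quantile normalization (-0.0047), without control replicate 2 or without doxorubicin replicate 1. The ratio of WWC2 to WWC1 was 1.89 to 2.35 in control and 0.957 to 1.58 after doxorubicin, without overlap. The junction proteins AMOTL1, which holds YAP1 in the cytoplasm, and FRMD6, a FERM-domain activator of the pathway, had log2 fold changes of -0.54 and -0.44. FRMD6 was not called at equal medians (-0.18) but was called lower after quantile normalization (-0.46).

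In the core cassette all 5 listed genes were called lower, beside 48.5% of all genes tested. At equal medians 3 of them were, beside 30.3%. LATS2 (ENSG00000150457, chromosome 13, 20973032 to 21061547), a kinase of YAP1 and itself a known target of YAP1, fell from 14.3, 15.0 and 13.2 TPM to 7.61, 6.27 and 9.35 TPM. Each doxorubicin library was under 10 TPM and each control library above 13 TPM. Limma gave a log2 fold change of -0.81 (SE 0.14, limma adjusted p = 0.000615), and -0.55 at equal medians. LATS1 (ENSG00000131023, chromosome 6, 149658153 to 149718256) was at 4.11, 4.17 and 3.37 TPM in control and 2.08, 2.71 and 3.19 TPM after doxorubicin. Its groups came close at 3.19 and 3.37 TPM, and the log2 fold change was -0.42 (SE 0.15, limma adjusted p = 0.0224). The call was lost at equal medians (-0.16), after quantile normalization (-0.06) and without control replicate 1, control replicate 2 or doxorubicin replicate 1. The ratio of LATS2 to LATS1 overlapped between groups (exact permutation test, p = 0.3), so a difference between the kinases was not detectable.

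The upstream kinase genes STK3 and STK4, which encode MST2 and MST1, had log2 fold changes of -0.55 and -0.58, from 6.51 ± 1.17 to 4.09 ± 0.305 TPM and from 4.93 ± 0.168 to 2.99 ± 0.428 TPM (SD, n = 3 each). The falls were of similar size, and the log2 ratio of STK4 to STK3 changed by -0.07 (exact permutation test, p = 0.9). Both remained called at equal medians but not after quantile normalization. MOB1A, the adaptor of LATS kinases, was at 20.4 to 21.5 TPM in control and 13.8 to 16.1 TPM after doxorubicin. Its log2 fold change was -0.51, and -0.25 at equal medians, under the minimum fold change. After quantile normalization MOB1A was called lower (-0.31).

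LIMD1 (ENSG00000144791, chromosome 3, 45555394 to 45686338) encodes a LIM protein that binds and restrains LATS kinases. It fell from 9.89, 9.87 and 8.53 TPM in control to 5.11, 4.03 and 6.37 TPM after doxorubicin. No value was shared between the groups, and the log2 fold change was -0.77 (SE 0.15, limma adjusted p = 0.00122), and -0.51 at equal medians. Its antisense neighbour LIMD1-AS1 (ENSG00000230530, chromosome 3, 45679043 to 45689134) was at 6.59, 5.07 and 10.1 TPM in control and 5.38, 4.13 and 4.71 TPM after doxorubicin. The groups overlapped (exact permutation test, p = 0.2), and control replicate 3 was the highest library. The log2 fold change was -0.48 (SE 0.20, limma adjusted p = 0.0472), and the call was lost in 5 of the 6 fits without a library, with values of -0.68 to -0.25 over the 6. It was also not called at equal medians (-0.23), after quantile normalization (-0.12), with no filter on low values or with limma's trend and robust options off. LIMD1 shares 62.3% of the exonic bases of LIMD1-AS1, and without strand the reads of the pair cannot be told apart. Antisense genes also share 9.98% of the exonic bases of YAP1, 9.45% of those of WWTR1, 9.61% of those of DKK1 and 12.7% of those of CTNNBIP1.

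The nuclear effectors of the Hippo pathway fell as well, and all 5 listed genes were called lower, beside 48.5% of all genes tested. At equal medians 4 of them were, beside 30.3%. YAP1 (ENSG00000137693, chromosome 11, 102110461 to 102233423) was at 41.3, 43.6 and 36.9 TPM in control and 27.8, 24.6 and 32.6 TPM after doxorubicin. The groups did not overlap. Its log2 fold change was -0.51 (SE 0.11, limma adjusted p = 0.00214), and -0.25 at equal medians, where its adjusted p was 0.0201 and the minimum fold change was missed. After quantile normalization YAP1 was called lower (-0.43). WWTR1 (ENSG00000018408, chromosome 3, 149517235 to 149736714), the paralog of YAP1, had 14.7, 20.6 and 13.6 TPM in control and 10.3, 8.72 and 10.9 TPM after doxorubicin. It was lower in every doxorubicin library, with a log2 fold change of -0.64 (SE 0.15, limma adjusted p = 0.00384) that was also called at equal medians (-0.38). The ratio of WWTR1 to YAP1 overlapped between groups (exact permutation test, p = 0.4). The sum of the coactivators was 56.9 ± 6.86 TPM in control and 38.3 ± 5.07 TPM after doxorubicin (SD, n = 3 each).

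TEAD1 (ENSG00000187079, chromosome 11, 12674591 to 12944483) and TEAD2 (ENSG00000074219, chromosome 19, 49340595 to 49362457) encode DNA-binding partners of YAP1 and had nearly equal levels in control. TEAD1 was at 21.7, 24.7 and 18.4 TPM in control and 9.94, 7.52 and 12.8 TPM after doxorubicin, and TEAD2 at 23.7, 22.5 and 23.6 TPM and 15.5, 15.1 and 16.4 TPM. In each gene the groups stood apart, and the fall of TEAD1 was the larger. On the log2 scale the change was -1.05 for TEAD1 (SE 0.17, limma adjusted p = 0.000509) and -0.54 for TEAD2 (SE 0.09, limma adjusted p = 0.000463). At equal medians these were -0.79 and -0.28. The ratio of TEAD1 to TEAD2 was 0.779 to 1.099 in the control libraries and 0.499 to 0.776 in the doxorubicin libraries, so that the groups were separate by a narrow margin. CD37 on the opposite strand shares 10.7% of the exonic bases of TEAD2. VGLL3, a cofactor that binds TEAD in place of YAP1, fell from 7.44 ± 0.201 to 4.48 ± 0.726 TPM (SD, n = 3 each). It moved by -0.63 on the log2 scale and just missed the fold change after quantile normalization (-0.26). The sum of TEAD1 and TEAD2 after doxorubicin was 57.4% of control, beside 67.3% for the sum of YAP1 and WWTR1.

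The 9 ratios between members within a library were chosen after the values had been seen. In 6 of them the groups did not overlap (exact permutation test, p = 0.1 for each, the smallest possible, and adjusted p = 0.15 over the 9). The design thus cannot take any of these differences past a threshold of 0.05.

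CCN3 (ENSG00000136999, chromosome 8, 119416306 to 119424353), a matricellular protein with antiproliferative activity, was the Hippo-side gene that rose. It had 4.23, 3.42 and 2.62 TPM in control and 5.23, 6.61 and 4.35 TPM after doxorubicin. The groups did not overlap but came close, at 4.23 and 4.35 TPM. Limma gave a log2 fold change of 0.53 (SE 0.17, limma adjusted p = 0.0164) and 0.79 at equal medians. The call was lost without control replicate 3 (limma adjusted p = 0.0647) and without doxorubicin replicate 2 (limma adjusted p = 0.0592). Without control replicate 3 PORCN was the single member called higher. CCN4 was below the filter, with 0.24 to 0.50 TPM in control and 0.11 to 0.33 TPM after doxorubicin.

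Further genes of both pathways were taken from 7 lists of 143 genes outside the rule, of which 68 are in the table and 65 were tested. Of these 52 were lower and 2 were higher (median log2 fold change -0.58), beside 48.5% and 22.7% of all genes tested. At equal medians 36 were lower and 7 higher with a median of -0.33, beside 30.3% and 45.2%. The same shares stand beside the counts of each list below. The 65 genes had a median span of 120864 bp, and 76.1% of all genes tested of 100000 to 200000 bp were lower on the TPM values. The listed genes in the table were taken to have passed the authors' selection as well, and some lists share PTPN14, BIRC5 and TNFRSF19. Of the WNT transducer genes 6 of 9 were lower and none higher on the TPM values, and at equal medians 4 were lower and 2 higher. GSK3B, the kinase that marks β-catenin for degradation, had the largest change of that list, with 75.0, 44.1 and 29.3 TPM in control and 12.4, 14.3 and 13.0 TPM after doxorubicin. Its control libraries spread over more than a 2-fold range while its doxorubicin libraries lay close together, and the log2 fold change was -1.72 (limma adjusted p = 0.00186).

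Among the WNT nuclear genes 5 of 6 were lower, with EP300, an acetyltransferase coactivator, at -0.71 on the TPM values although its groups overlapped. At equal medians 1 of the 6 was lower and EP300 was not called. In the planar polarity and noncanonical list 6 of 7 were lower, with CAMK2D, a calcium-dependent kinase, at -0.79, and the count was 6 at equal medians also. The remaining ligand and receptor list had 2 tested genes, KREMEN1, a DKK1 receptor, at -0.39 and TNFRSF19, a β-catenin target, at -1.61, both called lower, and KREMEN1 not so at equal medians (-0.13). The upstream Hippo list had 15 of 19 lower and none higher on the TPM values, with MAP4K3, a kinase that acts on LATS in parallel to STK3 and STK4, at -0.87. At equal medians 11 of the 19 were lower and 2 were higher.

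Of 19 tested genes known as targets of YAP and TEAD, 17 were lower and 1 was higher (median log2 fold change -0.67), and 13 were lower at equal medians. BIRC5 had the largest fall, from 21.9, 23.7 and 22.7 TPM to 0.26, 0.74 and 0.35 TPM (log2 fold change -4.05). BIRC5 encodes survivin, a mitotic protein, and HMMR in this list is mitotic too, so part of the list belongs to the cell cycle. The tissue factor gene F3, the receptor tyrosine kinase gene AXL and the matrix protein gene THBS1 had log2 fold changes of -0.71, -0.62 and -0.70. ANKRD1, a transcriptional cofactor and a common reporter of YAP1 activity, rose from 0.87, 1.29 and 0.90 TPM to 2.21, 2.21 and 1.79 TPM, with a log2 fold change of 0.61 (limma adjusted p = 0.00299). It was a low gene whose groups did not overlap, and its direction was opposite to that of the 17. Of 6 tested WNT target genes 4 were lower and 1 was higher, which was the cyclin gene CCND2 at 0.44. At equal medians 3 were lower and 2 higher, with the cyclin gene CCND1 added at 0.41. CCND1 was not called on the TPM values (0.16).

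**Figure D3:**
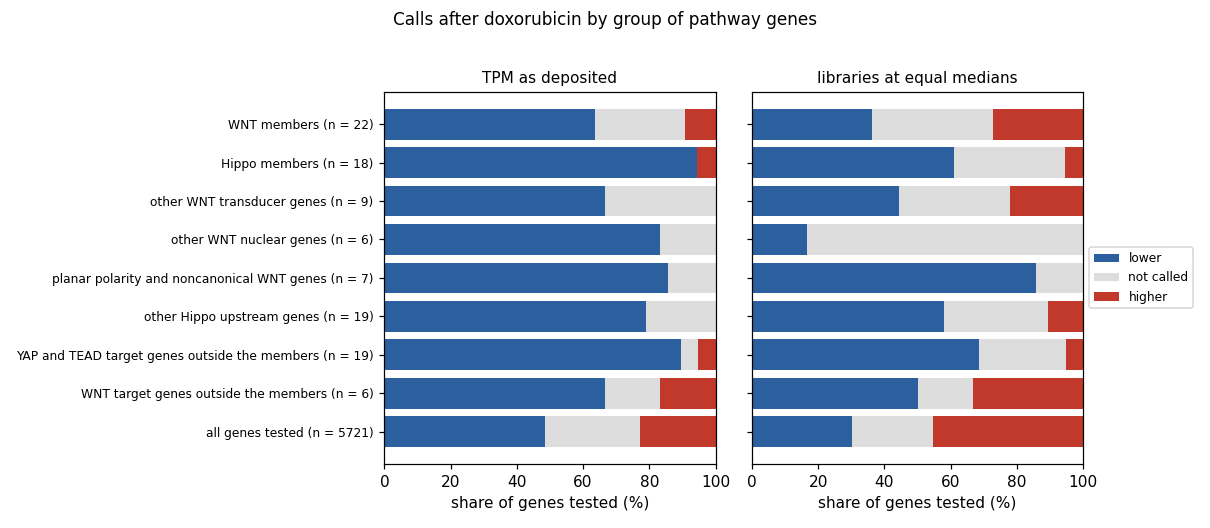
Share of genes tested that were called lower (blue), not called (grey) or called higher (red) after doxorubicin, for WNT and Hippo members, for 6 lists of further pathway genes and for all genes tested, on the TPM values (left) and with the libraries at equal medians (right). Hippo members were lower in 94.4% and all genes tested in 48.5% on the TPM values. At equal medians 11 of the 18 Hippo members were lower, beside 30.3% of all genes tested.

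The WNT and Hippo genes tested are long, with a median genomic span of 112580 bp, longer than 80.6% of the genes tested with a known span, whose median is 32497 bp. The median span was 134942 bp for the 18 genes of the Hippo steps and 54950 bp for the 22 of the WNT steps. The 32 genes called lower had a median span of 114109 bp, and the 3 called higher (CCN3, DKK1 and PORCN) had 8048, 3747 and 11853 bp. Span and log2 fold change had a Spearman rank correlation of -0.23 over the 41 genes and -0.441 over 5700 genes tested, both as descriptions of genes that share the same 6 libraries. The 22 members spanning over 100000 bp had 19 called lower, in 2 bins with median log2 fold changes of -0.51 (100000 to 200000 bp, 15 genes) and -0.64 (over 200000 bp, 7 genes). All genes tested in these bins had medians of -0.52 and -0.53, with 76.1% and 74.7% called lower. In the bin of 20000 to 50000 bp, which holds WNT5A, SFRP1 and TEAD2, 6 of 7 members were lower with a median of -0.64, beside 51.2% and -0.37 for all genes tested. From 50000 to 100000 bp 3 of 4 were lower with a median of -0.39, beside 69.3% and -0.48 for all genes tested. Below 20000 bp 4 of 8 were lower with a median of -0.10, WNT16, FZD1, FZD7 and LIMD1-AS1, beside 22.5% and 0.22 for all genes tested. The part of gene span in these changes was not tested.

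**Figure D4:**
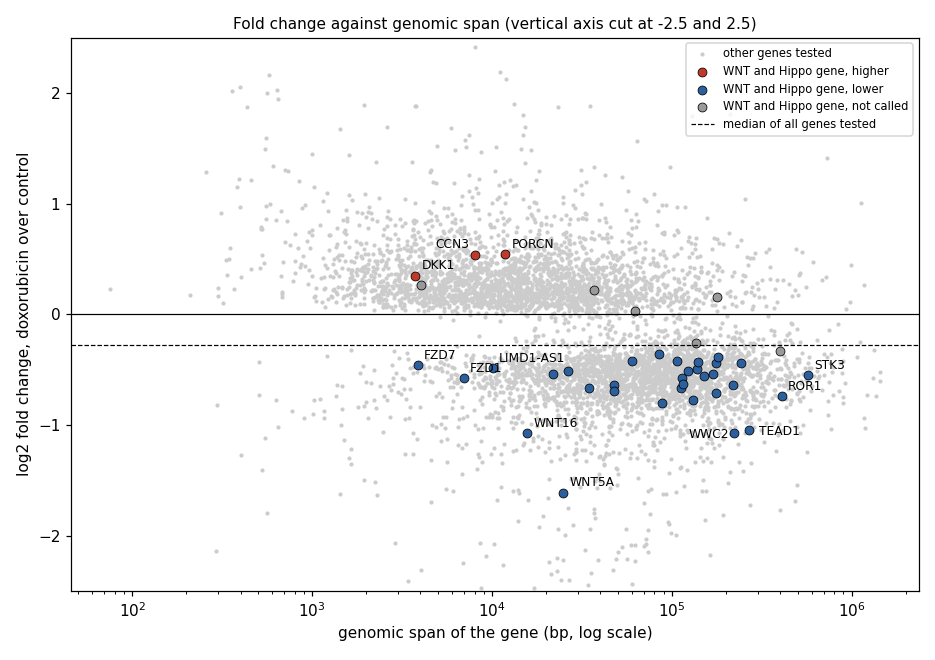
Log2 fold change, doxorubicin over control, against genomic span on a log axis for all genes tested (grey) and the WNT and Hippo genes (coloured by call) with the most extreme genes beyond the vertical axis. The table lists selected genes only, and few points lie near 0. The 3 members called higher are short, and WNT5A lies lowest of the members at -1.61.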

How the data were processed

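RNA of the control and doxorubicin groups (3 libraries each) was read from both ends over 150 bp. The submitters' processing notes name CASAVA, HISAT2, StringTie, RSEM, DESeq2 and edgeR without roles or versions, and the mouse build GRCm38, although the gene identifiers in the table are human. The annotation and the counting settings, strand included, are not given in the sources used here. The deposited values per library carry no unit and were taken as TPM made by the authors, since the listed genes sum to 543228 to 599670 in each library, under the total of TPM, and RSEM gives TPM. FPKM cannot be told apart from the header. The authors' mean TPM per group, their fold change as a ratio and as log2, and their p-value and adjusted p-value columns were deposited too and were not used.

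The 5721 of 6499 genes that averaged 1 TPM or more entered a linear model of log2(TPM + 1) in R 4.3.3, with the moderated test of limma 3.58.1 (trend and robust options on) and Benjamini-Hochberg adjustment. On simulated data of 5721 genes, 96 of 100 genes changed by 1 on the log2 scale were recovered and 51 of 100 changed by 0.5, with 7 unchanged genes called. In the simulation few genes changed and each gene varied on its own, unlike in these data, so its rates need not hold here. The same-numbered libraries of both groups did not deviate together (r of -0.06, -0.19 and -0.23, beside -0.005 to 0.19 for unlike numbers). These values gave no sign of pairing by number, but with 3 libraries a group they cannot exclude it. Equal medians means each library shifted to the same median log2 value. The medians, like the quantiles of the quantile normalization, were taken over the genes tested, so both scales rest on the selected list. Gene positions (GRCh38) came from GENCODE 29, matched by Ensembl identifier (6462 of 6499). All members are accounted for by step. Full statistics are given for the called gene of each step and direction with the largest change and for genes at the ends of the pathways. Other members were named freely, and from the further lists the called gene with the largest change in each direction was named, with HMMR, F3, AXL and THBS1 chosen after their values were seen. The members and lists were chosen with earlier results of these data known. Tables and exact tests used SciPy 1.17.1, NumPy 2.4.6 and pandas 2.3.3 under Python 3.11.15.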

Additional observations from a re-analysis of the deposited data

How the results depend on the processing

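Of the 35 genes called, 26 kept their call under every alternative that tested them other than the scalings, and 14 kept it under all. The scaling moved the counts most. With equal library medians 19 members were lower and 7 higher, with a median log2 fold change of -0.25, while 7 further pathway genes were higher and 2588 of all genes tested were higher and 1735 lower. After quantile normalization 18 members were lower, with a median of -0.26, 4 further pathway genes were higher and 1643 of all genes tested were lower, and the log2 fold change of BCL9 turned to 0.00609. Of the calls over all genes tested, 68.1% were lower on the TPM values and 40.1% at equal medians. At 5 TPM or more on average, 25 members were tested and 20 were lower. At that level 0 of 49 further pathway genes were called higher by limma (1 at an unadjusted p under 0.05). ANKRD1 and CCND2, called higher in the main fit, averaged less than 5 TPM and were not tested there. With each library left out in turn, 27 to 32 members were lower and 1 to 3 higher, the 1 without control replicate 3, and the log2 fold change of CTNNBIP1 ran from -0.0561 to 0.15. With the replicate number as a block (replicate block) 31 members were lower and 3 higher, and BCL9 lost its call. The depth is unknown, so genes near 1 TPM (WNT2, ROR1, LGR4) are limited in precision to an extent that cannot be stated.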
